A study of Mus musculus with 12 samples.

Results

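The TREM receptors are a family of immune receptors on myeloid cells, and 7 genes of the family and its signaling partners were followed here: the receptors Trem1, Trem2, Trem3, Treml2 and Treml4 and the adaptors Tyrobp, which encodes DAP12, and Hcst, which encodes DAP10. They were found by matching the Ensembl identifiers of both count tables to their symbols, which gave 7 of the 55487 genes measured, and all 7 passed the filter on low counts in both experiments. RNA-seq was performed on C57BL/6 mouse cells from limbs, labelled as 8 weeks of age. One experiment compared bone marrow-derived macrophages (BMMs) of ovariectomized (OVX) mice, a model of postmenopausal bone loss, with those of sham-operated mice, in 3 libraries each. The other measured mesenchymal stem cells (MSCs), taken as the cells of the bone marrow that adhered and then passaged, without a sort in the stated methods, in 2 libraries per group. By flow cytometry the study describes its MSCs as positive for CD29, Sca-1, CD73 and CD44 and negative for the blood cell markers CD34 and CD45. They were either untreated (MSC), co-cultured with RAW cells, a mouse macrophage line, across a Transwell membrane (MSC+RAW-TW), or co-cultured in that way with RAW cells stimulated with lipopolysaccharide (LPS), a bacterial endotoxin (MSC+RAW-LPS-TW). The number of mice behind each library is not given in the sources used here, so p-values measure the spread between these samples only, which may be technical.

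Most TREM receptors have almost no signaling tail of their own. A positively charged residue in the membrane-spanning segment binds a negatively charged residue of DAP12, whose tail carries the tyrosine motif called ITAM that recruits the kinase Syk. DAP10 is the shorter partner, and its tail carries a YxxM motif that recruits phosphoinositide 3-kinase. TREM1 amplifies the response of myeloid cells to bacterial products, whereas TREM2 binds lipids and lipoproteins and is known for damping inflammatory cytokines and for the fusion of osteoclast precursors. Inherited loss of TREM2 or DAP12 in people causes bone cysts and dementia.

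The coding sequences of the pairing residues are shown first, because receptor and adaptor pair through them. They are from the GENCODE M21 transcripts of GRCm38, and the capitals mark the codon of the charged residue nearest the middle of the most hydrophobic window of 19 residues. Of the receptors shown, Trem1, Trem3 and Treml4 had a lysine there, and both adaptors had an aspartate.
Trem1, lysine 214: ggacttctcagcAAGagcctggttttc
Trem3, lysine 149: ttcatactaaacAAGggcctggtcttc
Treml4, lysine 209: ctcctcctgctcAAGgccctgatgctg
Tyrobp, aspartate 52: attgttctgggtGACttggtgttgact
Hcst, aspartate 43: ctagtggctgcaGATgcggtcatgtca
Treml2, no charged codon in the window, residues 273 to 281: gtggtgttgacatttcttccagcacct
The signaling motifs of the adaptors follow, with the tyrosine codons in capitals. The first is the ITAM of Tyrobp, at residues 92 to 106 of 114, and the second the YxxM stretch of Hcst, at residues 69 to 78 of 79.
Tyrobp: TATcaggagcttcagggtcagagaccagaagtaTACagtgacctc
Hcst: ggtagagtcTACatcaacatgcctggcaga

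In the GRCm38 annotation the 5 receptor genes lay on the plus strand of chromosome 17 within 121380 bases, from Trem1 (ENSMUSG00000042265, chr17:48232768-48246924) through Trem3 (ENSMUSG00000041754, chr17:48247777-48258841), Treml4 (ENSMUSG00000051682, chr17:48264295-48275360) and Treml2 (ENSMUSG00000071068, chr17:48299498-48312533) to Trem2 (ENSMUSG00000023992, chr17:48346401-48354147). Trem1 and Trem3 were 852 bases apart. The adaptor genes were neighbours on chromosome 7, with Tyrobp on the plus strand (ENSMUSG00000030579, chr7:30413760-30417585) and Hcst on the minus strand (ENSMUSG00000064109, chr7:30417712-30419854), their 3′ ends 126 bases apart. One gene overlapped a member, the antisense pseudogene AC241601.2 inside Trem1, and it held 48 counts over the 12 libraries. The longest run of bases shared by the principal transcripts of any 2 members was 13, so no 2 members are near-copies of each other.

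The libraries held between 17012923 and 45367105 counts. Sham libraries 2 and 3 were far closer to each other than other pairs of a group, and so were both MSC+RAW-TW libraries, whose columns carry the same name. The chi-square ratio is 1 for sampling noise alone if each count is 1 independent fragment. It was 2.58 and 3.06 in these pairs at low counts and 4.54 and 5.15 at high counts. In the other pairs it was 4.08 to 8.02 and 124 to 1117. Many low counts were even, so a count may not be 1 fragment. Whether these near-identical pairs differed by more than sampling noise therefore cannot be told. The ratio rose less than 2-fold from low to high counts in these pairs and at least 25.6-fold in the others. Each of these pairs was summed and counted as 1 sample, which leaves 3 OVX, 2 sham, 2 MSC, 1 MSC+RAW-TW and 2 MSC+RAW-LPS-TW samples. In the tests, the lone MSC+RAW-TW sample is assumed to vary like the other groups. The cell labels were checked against marker genes. All 20 macrophage markers were above 1 CPM (read counts relative to the library total, scaled by TMM) in every library, those labelled MSC included: their summed level in the 2 MSC libraries was 31319 and 31636 CPM, against 2658 and 2740 CPM for 14 stromal markers, of which Thy1 and Lum, the 2 lowest, were under 1 CPM. Lyz2, a lysozyme gene of macrophages and neutrophils, was between 20610.4 and 20969 CPM in MSC and Col1a1, the main bone collagen, between 436 and 440.3 CPM, so the marker genes of macrophages were far above those of stromal cells in the libraries labelled MSC. Ptprc, which encodes CD45, was between 162.4 and 162.6 CPM in MSC and between 75.2 and 167 CPM in BMMs. The BMM libraries held more stromal marker RNA than those labelled MSC, with sums between 7494 and 8756 CPM and Col1a1 between 1998 and 2245 CPM, beside their macrophage marker sums of 50780 CPM or more. In such bulk samples, fewer cells of a type and less RNA per cell cannot be told apart.

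**Figure D1:**
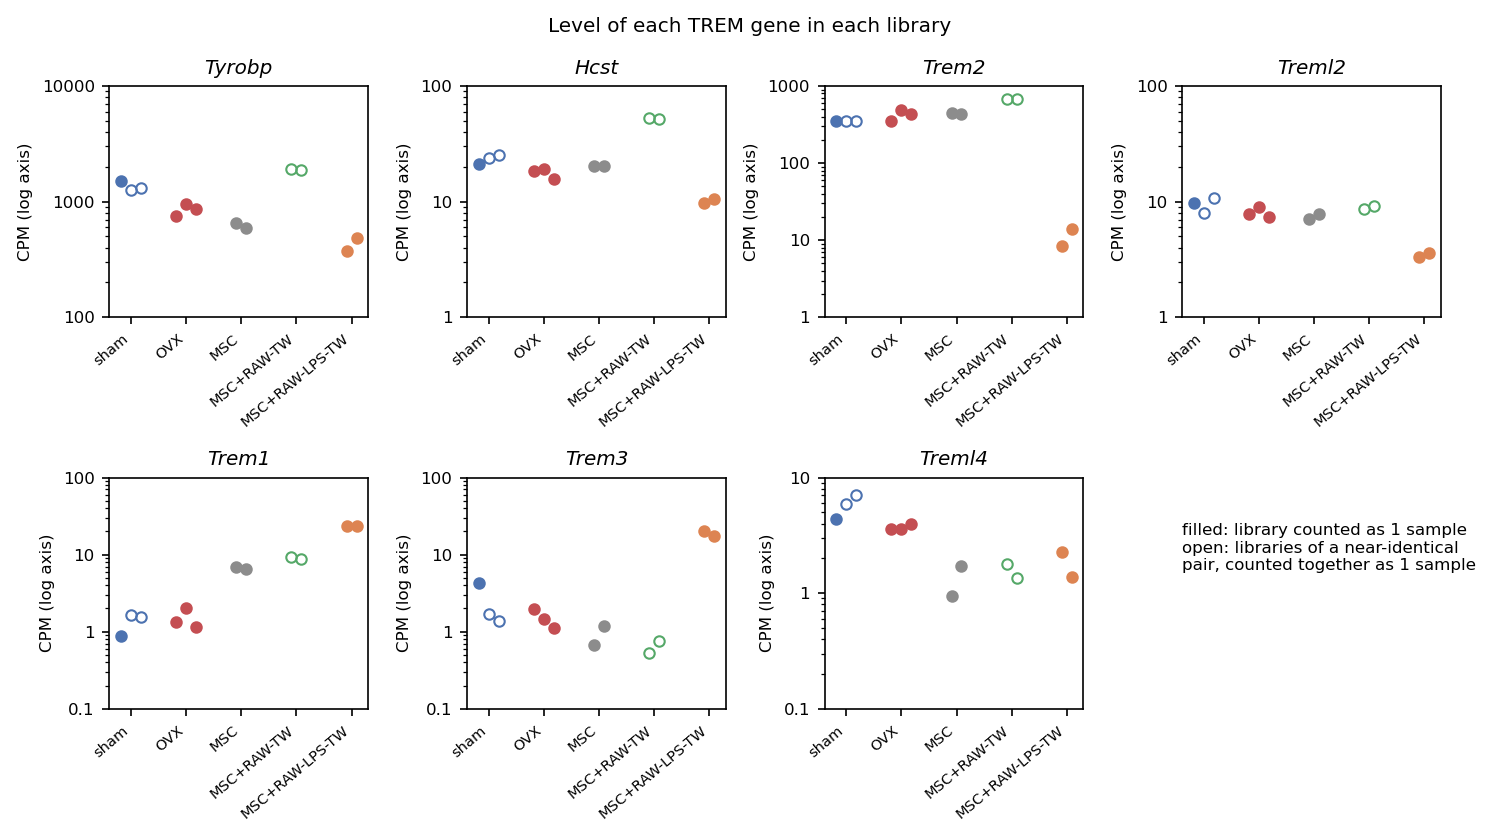
CPM of each of the 7 genes (log axis) in each of the 12 libraries by group; open points are the libraries of the 2 near-identical pairs. Trem2 stood at 8.45 and 13.8 CPM in the MSC+RAW-LPS-TW libraries and at 349 CPM or more in all others, while Trem1 and Trem3 were highest in MSC+RAW-LPS-TW.

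Tyrobp was the most abundant of the 7 genes in every library. Per kilobase of principal transcript, its mean level was 1523 ± 177 CPM per kb in OVX (SD, n = 3) and 2477 ± 262 in sham (SD, n = 2), against 40.3 ± 4.24 and 51.9 ± 5.05 CPM per kb for Hcst. Trem2 followed Tyrobp, with 388 ± 62.0 CPM per kb in OVX and 325 ± 1.94 in sham. The 4 other receptors were all under 5 CPM per kb in these macrophages: Treml2 had 3.82 ± 0.386 in OVX, Treml4 2.14 ± 0.136, Trem3 1.52 ± 0.446 and Trem1 0.503 ± 0.149. The length used for Trem2 was that of its principal transcript (1088 bases). Over the 4946 bases of all annotated Trem2 exons its level in OVX was 85.5 CPM per kb, still above those of the 4 other receptors on either length.

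Trem2 made up nearly all of the receptor transcripts in 4 of the 5 groups. As a share of the summed CPM per kb of the 5 receptors, it held between 96.5% and 97.1% in sham, between 97.5% and 98.2% in OVX, between 98.0% and 98.3% in MSC and 98.6% in both MSC+RAW-TW libraries. In MSC+RAW-LPS-TW it held 19.9% in one library and 31.3% in the other. Trem3, a receptor that is a pseudogene in humans, held between 43.2% and 52.6% there, and Trem1 between 19.4% and 20.1%. With all exons as the length, the share of Trem2 in MSC+RAW-LPS-TW was between 5.36% and 9.44%, and above 89% in every other library.

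**Figure D2:**
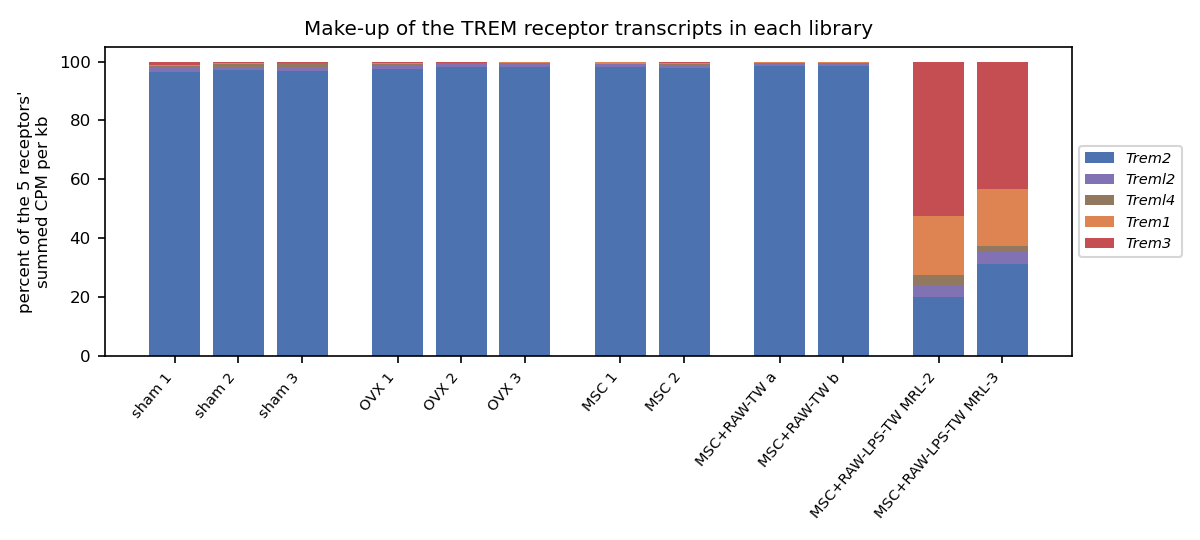
Share of each of the 5 TREM receptors in their summed CPM per kb of principal transcript (percent), 1 bar per library. Trem2 filled at least 96.5% of each bar outside MSC+RAW-LPS-TW and between 19.9% and 31.3% in that group.

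The comparison of OVX with sham BMMs asks which macrophage genes differ after ovariectomy. None of the 7 genes was called, which required both a 2-fold difference and an adjusted p no larger than 0.05 in edgeR's quasi-likelihood test, while 8.46% of the 16768 genes tested were called (5.39% higher and 3.08% lower in OVX). The lowest unadjusted p of the 7 in the edgeR test was 0.00411, for Tyrobp. DESeq2 called 0 of the 7, against 1636 of the 28194 genes it tested. The number of genes called overall rested on single libraries, falling from 1419 to 309 without OVX replicate 2 and to 678 without OVX replicate 1, and rising to 2390 without sham replicate 1. Removing trends on GC content and length turned the split from 903 higher and 516 lower to 220 higher and 370 lower.

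Tyrobp was at 757, 956 and 864 CPM in the 3 OVX libraries and at 1501, 1273 and 1312 CPM in the 3 sham libraries. The groups did not overlap, with every OVX library below every sham library, but the share of all genes without overlap was not counted. The log2 fold change was -0.70 ± 0.18 (SE), with an edgeR adjusted p of 0.0392, which passed the limit on p but not that on fold. Without any 1 of the OVX libraries the edgeR adjusted p was between 0.111 and 0.120. Without sham replicate 1, which leaves 1 sham sample, the log2 fold change was -0.63. With GC and length trends removed the log2 fold change was -0.37 with an edgeR adjusted p of 0.227. The edgeR adjusted p was 0.0402 without sham replicate 2 and 0.0419 without sham replicate 3, and the DESeq2 adjusted p was 0.00782.

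Trem2 was at 351, 484 and 433 CPM in the OVX libraries and at 355, 349 and 356 CPM in the sham libraries. The lowest OVX library was within the sham values and the other two were above them. The log2 fold change was 0.25 ± 0.20 (SE; edgeR adjusted p = 0.419). The receptor and its adaptor thus stood in another proportion to each other in each group, which can be read within a library with no scaling between libraries. There were 49.0 ± 2.36 Trem2 counts per 100 Tyrobp counts in OVX (SD, n = 3) and 25.5 ± 2.53 in sham (SD, n = 2). The values ran from 46.3 to 50.7 in OVX and from 23.7 to 27.4 over the sham libraries, with no overlap. This ratio was chosen after its values were seen, and the exact permutation test gave p = 0.2, two-sided as 2 times the smaller tail, which is the smallest p that 3 against 2 samples allow in this form.

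**Figure D3:**
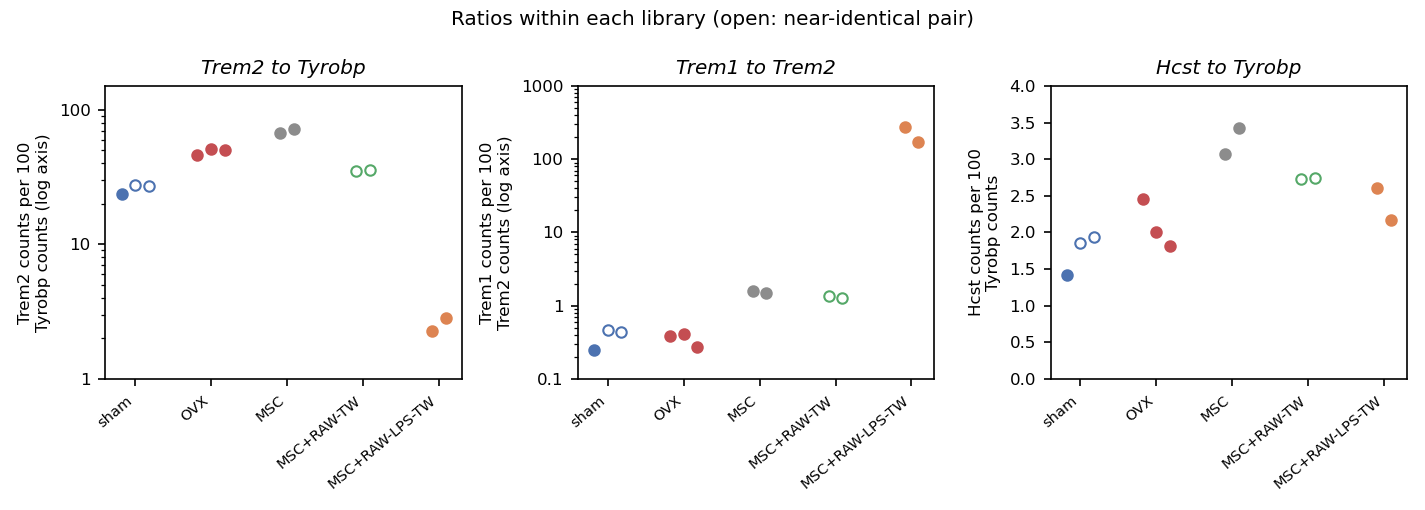
Counts of one gene per 100 counts of another within each library, by group (log axes for Trem2 to Tyrobp and Trem1 to Trem2, linear for Hcst to Tyrobp); open points are the near-identical pairs. Trem2 per 100 Tyrobp counts was lowest in MSC+RAW-LPS-TW (2.27 and 2.85), and Trem1 per 100 Trem2 counts was highest there (171 and 278).

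Hcst, the DAP10 gene, was at 18.6, 19.2 and 15.7 CPM in OVX and at 21.4, 23.6 and 25.4 CPM in sham. All OVX libraries were lower, but the log2 fold change of -0.37 ± 0.20 did not pass (edgeR adjusted p = 0.255) and was 0.06 once GC and length trends were removed. Treml4, a receptor reported to enhance signaling through Toll-like receptor 7, was at 3.61, 3.57 and 4.0 CPM in OVX and at 4.34, 5.86 and 7.08 CPM in sham. These groups did not overlap either, with the share of all genes again not counted. The log2 fold change of -0.55 ± 0.28 did not pass (edgeR adjusted p = 0.230). Treml2, which lacks the charged transmembrane residue, had a log2 fold change of -0.27 ± 0.21 (edgeR adjusted p = 0.440).

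Trem3 was at 1.98, 1.45 and 1.10 CPM in OVX and at 4.34, 1.69 and 1.38 CPM in sham. Sham library 1 stood above all others, and the near-identical sham libraries lay within the OVX values. The log2 fold change was -0.93 ± 0.47 (edgeR adjusted p = 0.221). It was -1.48 and called when both near-identical sham libraries were left out, and -0.04 at the other end of the alternatives tried. Trem1 had between 25 and 72 counts per library in BMMs and a log2 fold change of 0.29 ± 0.44 (edgeR adjusted p = 0.710), with the sham samples, at 0.886 and 1.58 CPM, overlapping the OVX values.

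The 3 MSC groups ask what macrophages beyond a membrane do to MSC transcripts, and whether LPS changes it. Between MSC+RAW-LPS-TW and MSC, 4 of the 7 genes were called, against 10.9% of the 20499 genes tested. Trem1 and Trem3 rose (5.85% of genes were called higher), and Trem2 and Treml2 fell (5.09% of genes were called lower). Between MSC+RAW-LPS-TW and MSC+RAW-TW, 6 of the 7 were called, against 27.4% of genes: Trem1 and Trem3 rose (15.4% of genes were called higher), and Trem2, Treml2, Tyrobp and Hcst fell (12.0% of genes were called lower). Between MSC+RAW-TW and MSC, 2 of the 7 were called, against 16.4% of genes, and both adaptors rose (6.80% of genes were called higher and 9.59% lower). The comparisons share samples, so they are not independent of each other. The median gene stood at a log2 fold change of -0.01, 0.14 and -0.13 in the 3 comparisons. Relative to it, between MSC+RAW-LPS-TW and MSC+RAW-TW Trem2 was at -6.08, Tyrobp at -2.31 and Hcst at -2.53, Treml2 at -1.52, Trem1 at 1.23 and Trem3 at 4.74, and between MSC+RAW-TW and MSC Tyrobp was at 1.801 and Hcst at 1.55.

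Trem2 was at 442 and 429 CPM in MSC, at 672 and 673 CPM in MSC+RAW-TW and at 8.45 and 13.8 CPM in MSC+RAW-LPS-TW. The last group was separated from the other two by a gap larger than the spread of any group. Against MSC the log2 fold change was -5.25 ± 0.23 (SE; edgeR adjusted p = 1.83e-10), a level 38.1-fold lower, and against MSC+RAW-TW it was -5.94 ± 0.25 (edgeR adjusted p = 2.52e-10), 61.6-fold lower. Between MSC+RAW-TW and MSC it was 0.69 ± 0.23 (edgeR adjusted p = 0.0323), under the limit on fold. A heat map in the study shows Trem2 among genes of these libraries, so its fall here is not independent evidence. Trem2 had the largest fall of the 7 genes in both comparisons with MSC+RAW-LPS-TW.

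Tyrobp was at 657 and 597 CPM in MSC, at 1922 and 1878 CPM in MSC+RAW-TW and at 373 and 485 CPM in MSC+RAW-LPS-TW. The adaptor was highest with untreated RAW cells, and the groups did not overlap. It rose between MSC+RAW-TW and MSC, with a log2 fold change of 1.67 ± 0.19 (edgeR adjusted p = 0.000130), and fell between MSC+RAW-LPS-TW and MSC+RAW-TW, with -2.18 ± 0.19 (edgeR adjusted p = 6.47e-07). Between MSC+RAW-LPS-TW and MSC it was -0.51 ± 0.16 (edgeR adjusted p = 0.0374), under the limit on fold. The receptor and the adaptor were in another proportion in each group: per 100 Tyrobp counts there were between 67.4 and 71.8 Trem2 counts in MSC, between 34.97 and 35.8 in MSC+RAW-TW, and between 2.27 and 2.85 in MSC+RAW-LPS-TW.

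Hcst was at 20.2 and 20.5 CPM in MSC, at 52.4 and 51.4 CPM in MSC+RAW-TW and at 9.71 and 10.51 CPM in MSC+RAW-LPS-TW. It ranked the groups as Tyrobp did. Its log2 fold change was 1.42 ± 0.20 between MSC+RAW-TW and MSC (edgeR adjusted p = 0.000262) and -2.39 ± 0.20 between MSC+RAW-LPS-TW and MSC+RAW-TW (edgeR adjusted p = 3.19e-07). Between MSC+RAW-LPS-TW and MSC it was -0.97 ± 0.17 (edgeR adjusted p = 0.000619), just under the limit on fold, and -1.03 and called without the library headed MRL-3. Over all 12 libraries the count of Hcst per 100 Tyrobp counts stayed between 1.42 and 3.43, whereas that of Trem2 ranged from 2.27 to 71.8.

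Trem1 was at 6.98 and 6.41 CPM in MSC, at 9.21 and 8.66 CPM in MSC+RAW-TW and at 23.5 and 23.6 CPM in MSC+RAW-LPS-TW. It rose in MSC+RAW-LPS-TW by a log2 fold change of 1.85 ± 0.19 over MSC (edgeR adjusted p = 3.47e-06) and 1.37 ± 0.24 over MSC+RAW-TW (edgeR adjusted p = 0.000366). The difference between MSC+RAW-TW and MSC, 0.48 ± 0.23, did not pass (edgeR adjusted p = 0.124). In raw counts, which do not allow for transcript length, the order of both receptors turned over. There were between 1.29 and 1.58 Trem1 counts per 100 Trem2 counts in MSC and MSC+RAW-TW and between 171 and 278 in MSC+RAW-LPS-TW. Per kilobase of principal transcript, however, Trem2 was not below Trem1 there beyond the spread, with 10.2 ± 3.51 against 7.87 ± 0.0313 CPM per kb (SD, n = 2). Over all annotated exons it was below, with a mean of 2.25 against 7.86 CPM per kb, so the order depends on the length used.

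Trem3 was at 0.674 and 1.20 CPM in MSC, at 0.527 and 0.753 CPM in MSC+RAW-TW and at 20.4 and 17.4 CPM in MSC+RAW-LPS-TW. In raw counts these were 34 and 43, then 23 and 28, then 725 and 587. The gene was near the lower end of detection in the first groups and clearly present in the last. The log2 fold change was 4.40 ± 0.31 over MSC (edgeR adjusted p = 3.47e-08) and 4.87 ± 0.42 over MSC+RAW-TW (edgeR adjusted p = 4.23e-07). Per kilobase, Trem3 in MSC+RAW-LPS-TW, at 19.04 ± 2.12 CPM per kb (SD, n = 2), stood above both Trem1 at 7.87 ± 0.0313 and Trem2 at 10.2 ± 3.51.

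Treml2, the receptor with no charged transmembrane residue, was at 7.13 and 7.78 CPM in MSC, at 8.63 and 9.22 CPM in MSC+RAW-TW and at 3.35 and 3.59 CPM in MSC+RAW-LPS-TW. Both LPS libraries were lowest. The log2 fold change was -1.07 ± 0.25 against MSC (edgeR adjusted p = 0.00553) and -1.39 ± 0.29 against MSC+RAW-TW (edgeR adjusted p = 0.00126). The first of these was -0.98, under the limit on fold, without MSC replicate 2. Treml4 was under 2.3 CPM in all 6 libraries and was called in none of the 3 comparisons, with log2 fold changes of 0.49 ± 0.47, 0.16 ± 0.57 and 0.33 ± 0.56.

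**Figure D4:**
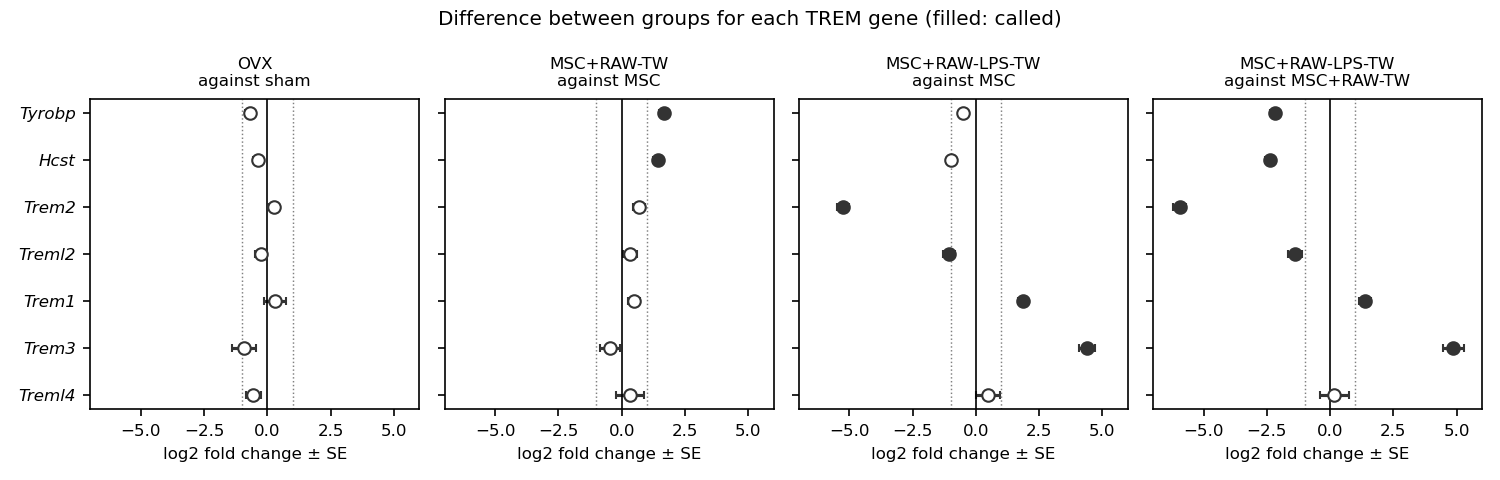
Log2 fold change ± SE of each of the 7 genes in each of the 4 comparisons (edgeR; filled points are called, dotted lines mark a fold of 2). None was called between OVX and sham, whereas Trem2 and Treml2 fell and Trem1 and Trem3 rose in both comparisons of MSC+RAW-LPS-TW.

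Marker genes of cell types also differed between the groups. Of the 5 monocyte markers tested in MSC+RAW-LPS-TW against MSC, Plac8 was called higher (log2 fold change 1.66 ± 0.18). Ccr2 (-4.25 ± 0.25) and F13a1 (-3.996 ± 0.179) were called lower. Between OVX and sham, Ccr2 was called higher (2.45 ± 0.24) and Ly6c2 lower (-1.19 ± 0.21). The part of these monocyte markers was not tested. The summed macrophage markers fell from between 31319 and 31636 CPM in MSC, and between 38781 and 39369 in MSC+RAW-TW, to between 15691 and 16193 CPM in MSC+RAW-LPS-TW, and their median marker fell from 559 CPM or more to 243 CPM or less. Of the 20 markers, 8 were called lower and 1 higher against MSC; the scavenger receptor gene Mrc1 had a log2 fold change of -7.20 ± 0.20 and Cd68 one of -2.82 ± 0.17, whereas Adgre1, which encodes F4/80, rose by 1.42 ± 0.16. Their part in the result was not tested. Per 1000 CPM of summed macrophage markers, a sum in which Lyz2 weighs most, Trem2 was between 13.7 and 14.0 in MSC and between 0.538 and 0.855 in MSC+RAW-LPS-TW, so its level was lower on this measure too. Tyrobp was between 19.1 and 20.8 in MSC, between 48.4 and 48.8 in MSC+RAW-TW and between 23.7 and 29.9 in MSC+RAW-LPS-TW, and Trem1 was between 0.205 and 0.220 in MSC and between 1.46 and 1.496 in MSC+RAW-LPS-TW. Trem3 was higher on this measure too, between 0.0213 and 0.0383 in MSC and between 1.08 and 1.30 in MSC+RAW-LPS-TW. The fall of Treml2 was nearly absent on it: Treml2 was between 0.226 and 0.248 in MSC, between 0.219 and 0.238 in MSC+RAW-TW and between 0.214 and 0.222 in MSC+RAW-LPS-TW. Hcst overlapped between MSC, with 0.638 and 0.654, and MSC+RAW-LPS-TW, with 0.619 and 0.649, and was at 1.33 in MSC+RAW-TW.

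Stromal markers had summed levels between 2658 and 2740 CPM in MSC and between 3890 and 3944 CPM in MSC+RAW-LPS-TW, with 3 of 14 called higher, led by the matrix genes Lum and Dcn. Neutrophil markers matter for Trem1 and Trem3, which neutrophils also express. Their summed level was between 61.4 and 63.7 CPM in MSC and between 471 and 611 CPM in MSC+RAW-LPS-TW. There S100a8, also made by activated macrophages, held 400.5 ± 114 CPM. At most 4 of the 12 markers were above 1 CPM in any MSC, MSC+RAW-TW or MSC+RAW-LPS-TW library. Of the 5 markers tested, 3 were called higher in MSC+RAW-LPS-TW against MSC: S100a8, Camp (log2 fold change 5.81 ± 0.29) and Mmp8 (2.14 ± 0.20). Their part in the rise was not tested. In BMMs the neutrophil markers summed to between 1302 and 1469 CPM in OVX and between 962 and 1078 CPM in sham, without overlap. S100a8 and S100a9 held most of these sums. The median marker went the other way, between 11.7 and 13.3 CPM in OVX and between 14.3 and 17.1 CPM in sham. Of the 12 markers, 0 were called. Between 9 and 12 of the 12 were above 1 CPM, so neutrophil RNA was present beside the Trem1 and Trem3 values given for BMMs. Its part was not tested. The summed macrophage markers were between 50780 and 54986 CPM in OVX and between 66923 and 76034 CPM in sham, as Tyrobp was lower in OVX, and their part was not tested. Per 1000 CPM of these markers, Tyrobp was between 13.8 and 18.6 in OVX and between 19.03 and 19.7 in sham, and Trem2 between 6.38 and 9.41 in OVX and between 4.67 and 5.21 in sham.

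The start of Trem2 is shown because its level fell furthest among the 7 genes. The 300 bases run from 250 before to 50 after the start in RefSeq, on the plus strand of GRCm38.p6 at chr17:48346151-48346450. Capitals mark matches to GAGGAAG, a form of the site of the myeloid factor PU.1, and to TGANTCA, a relaxed form of the AP-1 site, on either strand, and they do not overlap each other.
Trem2: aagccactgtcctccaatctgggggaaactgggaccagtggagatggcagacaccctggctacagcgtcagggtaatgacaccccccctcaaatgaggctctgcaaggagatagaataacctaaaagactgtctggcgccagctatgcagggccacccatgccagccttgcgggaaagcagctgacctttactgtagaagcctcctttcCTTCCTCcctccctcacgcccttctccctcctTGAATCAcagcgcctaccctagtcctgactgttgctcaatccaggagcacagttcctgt
The first match began 41 bases before the start, on the minus strand, and the second 9 bases before it. Among all promoters of this length, 13.6% held GAGGAAG and 7.81% held TGANTCA. Of the 4 members with a promoter sequence in the table, Trem1, Treml4 and Hcst had neither match. The kappaB site (in 4.51% of promoters), CACGTG (7.15%), TATAAA (13.6%) and GGGCGG (35.7%) were matched in none of the 4, while the short core GGAA, present in 96% of promoters and within GAGGAAG, was matched in all 4. A match is a description of letters and does not show binding.

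Both other receptor genes of the cluster were lower in MSC+RAW-LPS-TW. Treml1, a platelet receptor beside Trem2, had 104 and 76 counts in MSC, 136 and 90 in MSC+RAW-TW, and 2 and 0 in MSC+RAW-LPS-TW, and was called lower there in both comparisons. Treml6, listed in the annotation as B430306N03Rik and lying between Treml2 and Trem2, was at 47.2 ± 6.11 CPM in MSC, 31.8 CPM in MSC+RAW-TW and 11.6 ± 0.419 CPM in MSC+RAW-LPS-TW (SD, n = 2), with a log2 fold change of -1.99 ± 0.17 against MSC (edgeR adjusted p = 4.88e-07) and -1.47 ± 0.20 against MSC+RAW-TW. Neither was called between MSC+RAW-TW and MSC or between OVX and sham. Along the chromosome, the 2 genes called higher in MSC+RAW-LPS-TW, Trem1 and Trem3, were neighbours at one end, and the 4 called lower, Treml2, Treml6, Trem2 and Treml1, were neighbours at the other, with uncalled Treml4 between them.

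Lists of pathway genes give the setting. Beside their counts stand the shares of all genes called: 5.39% higher and 3.08% lower in OVX against sham, 5.85% and 5.09% in MSC+RAW-LPS-TW against MSC, 15.4% and 12.0% in that group against MSC+RAW-TW, and 6.80% and 9.59% in MSC+RAW-TW against MSC. The median log2 fold changes of all genes in these comparisons were -0.01, -0.01, 0.14 and -0.13. Among 13 other receptors that use DAP12 or DAP10, 10 were tested in the MSC groups. Against MSC, 4 were higher and 3 lower in MSC+RAW-LPS-TW, and the median log2 fold change was 0.24 against -0.01 for all genes. Cd300e rose from 3.63 to 38.4 CPM, and the paired receptors Pilrb2 and Pilrb1 rose by log2 fold changes of 2.002 ± 0.185 and 1.52 ± 0.21, while Cd300lb fell from 56.4 to 5.15 CPM and Clec5a, which encodes MDL-1, from 50.8 to 17.7 CPM. Against MSC+RAW-TW, 4 were higher and 2 lower, and between MSC+RAW-TW and MSC 1 was higher and 1 lower. Between OVX and sham, 11 were tested, of which 1 was higher and 5 lower, with a median of -0.91: Clec5a rose by 1.46 ± 0.31 (edgeR adjusted p = 0.0221), and Cd300e had a log2 fold change of -2.495 ± 0.349. None of the 4 tested of 7 other ITAM adaptor chains was called in the MSC groups. Of the 6 tested in BMMs (median -0.76), 2 were lower in OVX, Fcer1g, the Fc receptor gamma chain gene, with a log2 fold change of -1.005 ± 0.257 (edgeR adjusted p = 0.0393), and the B cell chain gene Cd79b with one of -1.44 ± 0.20. Of 5 B cell markers, Cd79b among them, 2 were lower in OVX, with summed levels between 9.07 and 10.1 CPM in OVX and between 21.0 and 25.03 CPM in sham, and their part was not tested.

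Of 29 genes that relay ITAM or YxxM signals, 5 were higher and 4 lower in MSC+RAW-LPS-TW against MSC, and 20 were not called (median log2 fold change 0.10). The paracaspase gene Malt1 rose by 3.03 ± 0.17, the Src-family kinase gene Fgr by 1.73 ± 0.21 and Lcp2, which encodes SLP-76, by 1.22 ± 0.15, while the exchange factor gene Vav3 had a log2 fold change of -1.91 ± 0.17, the adaptor gene Lat2 one of -1.52 ± 0.18 and the kinase gene Btk one of -1.16 ± 0.15. Against MSC+RAW-TW, 6 were higher and 3 lower, and between MSC+RAW-TW and MSC 1 was higher and 2 lower. Between OVX and sham, 7 were lower and none was higher, with a median of -0.74 against -0.01 for all genes. Of the 20 macrophage markers, 4 were lower and 1 higher in OVX, with a median of -0.52. The lower ones included the myeloid factor gene Spi1 (-1.46 ± 0.21) and Aif1 (-1.31 ± 0.16), and the higher one was Mrc1 (2.004 ± 0.224). The part of these markers was not tested. Rac2, a GTPase of phagocytes, fell from 1423 ± 199 CPM in sham to 357 ± 38.0 CPM in OVX, where its log2 fold change was -1.999 ± 0.193 (edgeR adjusted p = 0.00301), and the exchange factor gene Vav1 had a log2 fold change of -1.42 ± 0.20. Of 8 inhibitory genes (median -0.33 in OVX against sham), 2 were lower in OVX, the phosphatase gene Ptpn6 (-1.12 ± 0.18) and the adaptor gene Dok3 (-1.14 ± 0.24), and none was called in MSC+RAW-LPS-TW against MSC (median 0.09), while 1 was higher and 1 lower in each of the other MSC comparisons.

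Among 9 ligands and co-receptors, 2 were lower in MSC+RAW-LPS-TW against MSC (median -0.20) and 4 against MSC+RAW-TW (-0.53), and 4 were higher in MSC+RAW-TW against MSC (0.28). Apoe, the lipoprotein that TREM2 binds, was at 2502 ± 66.3 CPM in MSC, 6407 CPM in MSC+RAW-TW and 1066 ± 387 CPM in MSC+RAW-LPS-TW (SD, n = 2), with log2 fold changes of 1.42 ± 0.24 and -1.19 ± 0.20 against MSC. Lgals3, a galectin gene, was at 1573 ± 124, 4632 and 549 ± 70.9 CPM. Within the 3 MSC groups both ligand genes had the order of Tyrobp and Trem2. Of 5 genes tied to the shedding or surface level of TREM2, Ms4a6d rose by 1.045 ± 0.152 and Ms4a7 had a log2 fold change of -1.72 ± 0.15 in MSC+RAW-LPS-TW against MSC; 2 were higher against MSC+RAW-TW, and 2 were lower in MSC+RAW-TW against MSC. The list's medians were 0.08, 0.36 and -0.31. Between OVX and sham, 1 of the 9 ligands was lower, Clu (list median -0.20), and 0 of the 5 surface genes were called (median -0.12).

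The 23 genes of the lipid and phagocyte program that is associated with TREM2 had 11 lower and 1 higher in MSC+RAW-LPS-TW against MSC, and a median log2 fold change of -0.995 against -0.01 for all genes. Igf1, a growth factor gene, fell from 245 ± 6.81 to 15.1 ± 4.72 CPM, the glycoprotein gene Gpnmb from 1091 ± 59.4 to 155 ± 15.2 CPM, and the lipoprotein lipase gene Lpl from 805 ± 46.2 to 136 ± 0.293 CPM (SD, n = 2 each), with log2 fold changes of -3.99 ± 0.21, -2.78 ± 0.16 and -2.53 ± 0.16. The cholesterol exporter gene Abca1 rose by 1.31 ± 0.15. Against MSC+RAW-TW, 13 were lower and 2 higher, and between MSC+RAW-TW and MSC 3 were higher and none lower. In BMMs, with a median of 0.18, 1 was higher in OVX, Clec7a (1.70 ± 0.34), and 1 lower, the exporter gene Abcg1 (-1.10 ± 0.17).

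All 9 cytokine and related genes that TREM1 is known to amplify were higher in MSC+RAW-LPS-TW, both against MSC (median log2 fold change 4.99) and against MSC+RAW-TW (5.45). Il1b rose from 16.7 ± 2.39 to 6802 ± 1135 CPM, Il6 from 0.439 ± 0.108 to 191 ± 16.9 CPM and Cxcl1 from 16.1 ± 5.82 to 886 ± 166 CPM (SD, n = 2 each). Between MSC+RAW-TW and MSC, 2 were higher and 2 lower. In OVX BMMs the median was -0.995, and 1 was higher, Ptgs2, the inducible cyclooxygenase gene (1.32 ± 0.20), and 3 were lower: Cxcl1 (-1.67 ± 0.25), Ccl4 (-1.41 ± 0.18) and Tnf (-1.19 ± 0.21). Of 12 genes of osteoclast fusion and bone resorption, 10 were tested in the MSC groups, and 4 were higher and 1 lower in MSC+RAW-LPS-TW against MSC (median 0.22). The matrix protease gene Mmp9 rose from 36.4 to 672 CPM and Acp5, which encodes the osteoclast phosphatase TRAP, from 22.1 to 103 CPM, while the proton pump gene Atp6v0d2 fell from 16.6 to 2.83 CPM. Against MSC+RAW-TW 3 were higher and 1 lower, and between MSC+RAW-TW and MSC 1 was higher and 1 lower. In OVX 4 of 11 were lower and none higher, with a median of -0.83, among them Mmp9 (-1.72 ± 0.17) and Acp5 (-1.22 ± 0.21).

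**Figure D5:**
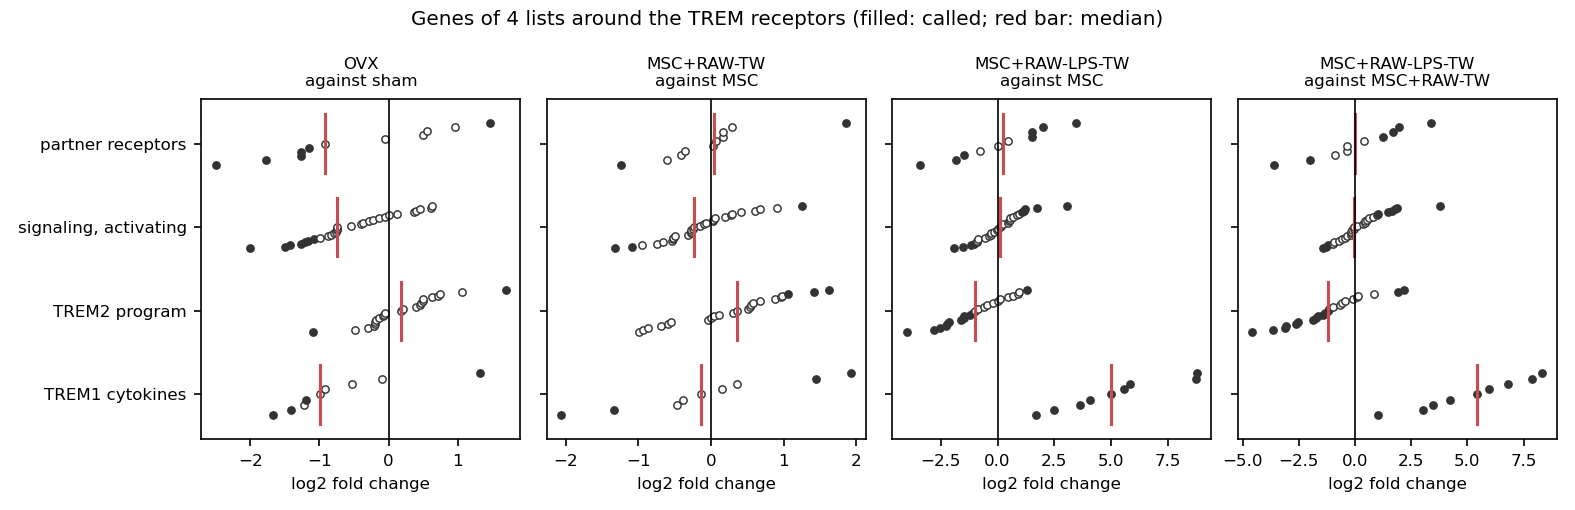
Log2 fold change of each tested gene of 4 lists (DAP12 or DAP10 partner receptors, activating signaling genes, the TREM2-associated program, cytokines amplified by TREM1) in each comparison; filled points are called, the red bar is the list's median, and the horizontal scale differs between panels. All 9 cytokine genes lay above 0 in both comparisons of MSC+RAW-LPS-TW, and the TREM2-associated program had medians of -0.995 and -1.18 there.

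The group order of each gene was read from the 10 distinct samples. Trem2 was highest in MSC+RAW-TW, then MSC, OVX and sham, of which MSC and OVX overlapped and so did OVX and sham, and lowest in MSC+RAW-LPS-TW with no overlap. Tyrobp ran from MSC+RAW-TW through sham, OVX and MSC to MSC+RAW-LPS-TW, with no neighbours overlapping, and Hcst from MSC+RAW-TW through sham, MSC and OVX to MSC+RAW-LPS-TW, also with none overlapping. Trem1 ran from MSC+RAW-LPS-TW through MSC+RAW-TW and MSC to OVX and sham, and only these last overlapped. Levels set across the experiments come from separate count tables, so they are given as a description.

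Genes with the most similar pattern were sought by Pearson's r of log2(CPM + 1) over the 10 samples, which share libraries and scaling. For Trem2 these were Lyl1 (0.99), Susd3 (0.99) and Igf1 (0.99), and for Tyrobp Gpx1 (0.99), Tmem256 (0.98) and Abhd4 (0.98). For Hcst they were Csf1r (0.975), the receptor gene of the main macrophage growth factor, Vps45 (0.973) and Lgals3 (0.972). For Trem1 they were Cxcl14, Rgs16 and Ret, for Trem3 Mmp13, Pid1 and Il6, for Treml2 Dnase2a, Alox5ap and Rab3il1, and for Treml4 Mypop, Btd and Meg3, with r between 0.95 and 0.99. Among the members, Trem2 and Treml2 had r = 0.95, Tyrobp and Hcst 0.85, and Trem2 and Trem3 -0.96.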

How the data were processed

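RNA-seq counts of 12 libraries were analysed. As the methods state, the authors took poly(A) RNA through a directional kit, trimmed the reads with Trim Galore (v0.6.7), aligned them to GRCm38 with HISAT2 (v2.1.0) and counted them per Ensembl gene with featureCounts (v2.0.1). The deposited tables hold whole-number counts, neither normalized nor filtered. The strand setting is not given in the sources used here. Between 60.0% and 71.4% of the counts from 1 to 20 were even in each library, so a count may not stand for 1 independent fragment.

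Gene names came from GENCODE M21, which named 55227 of 55487 identifiers. Each experiment was fitted with edgeR (v4.0.16) in R (v4.3.3), with TMM scaling, filterByExpr and the two-sided quasi-likelihood F-test. The MSC groups shared a fit. A call needed a 2-fold difference and p no larger than 0.05 after Benjamini-Hochberg adjustment over all genes tested. The scripts were tested on simulated counts. Levels are CPM with all 12 libraries scaled together; SD is over distinct samples, and SE is the log2 fold change divided by the square root of F. DESeq2 (v1.42.0) and other settings were alternatives.

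The members, lists and tests were chosen with earlier results of these data known. Genes named from a list passed the call and averaged 5 CPM or more, up to the 3 largest rises and 3 largest falls per list and comparison, from which examples are given; pattern searches used genes with at least 5 CPM for members with at least 1 CPM. Sequences were read from GENCODE and RefSeq; promoters of 4 of the 7 members matched. Some sequences and list genes are not reported here.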

Additional observations from a re-analysis of the deposited data

How the results depend on the processing

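Over the 4 comparisons, 12 calls of members were tried under 180 alternatives, and 179 kept their call, 1 lost it and 0 reversed; of 247 alternatives for the 16 members not called, 6 gained a call and 4 changed sign. The call that was lost was Treml2 in MSC+RAW-LPS-TW against MSC without MSC replicate 2. Between OVX and sham, members called were 1 with no limit on fold (Tyrobp) and 1 without both sham replicates 2 and 3 (Trem3), and 0 in every fit that left out one library. Genes called between OVX and sham were 2193 with no limit on fold, 590 with GC content and length trends removed, and between 309 and 2390 when one library was left out. Genes called were 4286 with no limit on fold for MSC+RAW-LPS-TW against MSC, and 5862 with no limit on fold and 2165 with GC and length trends removed for MSC+RAW-TW against MSC, where the split turned from 1394 higher and 1966 lower to 1125 higher and 1040 lower. With the replicate block and every library separate, 2117 genes and 0 members were called between OVX and sham. Same-numbered OVX and sham libraries had correlated deviations of 0.50, -0.06 and 0.50. Because sham libraries 2 and 3 were nearly identical, these values cannot settle whether the numbers pair the samples. In the column names of the co-culture experiment, no 2 groups share more than 1 replicate number, so no fit by replicate number was made there. A block for the column name series or ending, chosen after seeing the data and with every library separate, called 0, 4, 6 and 2 members in the 4 comparisons. A lone sample left in a group was assumed to vary like the other groups. Counts of uncalled members were low for Trem1 (25 to 72 per library), Trem3 (26 to 152) and Treml4 (90 to 152) in BMMs and Treml4 in the MSC groups (46 to 80), and whether depth or the spread between samples limited their calls was not tested.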
